A study of Mus musculus with 8 samples.

Results

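The SoxC transcription factor genes and a set of genes that mark newborn neurons were followed in mouse retinas lacking *Mettl3*. The set holds 10 genes of the 54532 in the deposited count table, chosen by gene symbol with earlier results of these data known. All 10 had enough counts to be tested. They are the SoxC genes *Sox4*, *Sox11* and *Sox12*, the cytoskeleton and axon growth genes *Dcx*, *Tubb3*, *Stmn2* and *Gap43*, and the neuronal ELAV-like genes *Elavl2*, *Elavl3* and *Elavl4*. RNA-seq compared 4 retinal samples of *Mettl3*-CKO mice with 4 of controls, 1 library per sample. The *Mettl3*-CKO mice carried *Six3-Cre* and 2 floxed *Mettl3* alleles, so that METTL3, the catalytic subunit of the m6A RNA methyltransferase, was lost from retinal progenitor cells (RPCs) and their progeny. *Six3-Cre* acts mainly in the central retina, and the exact genotype of the controls, the sex of the pups, and whether a sample pooled retinas or the controls were littermates, are not given in the sources used here. Retinas were taken at postnatal day 7 by the labels, whereas the methods name p6. Of the 10 genes, *Sox11*, *Dcx* and *Tubb3* were called higher in *Mettl3*-CKO retinas, against 6.49% of all 17998 genes tested, and none was called lower, against 4.05% of all genes (edgeR's quasi-likelihood test, adjusted p under 0.05). DESeq2 (which called 6.20% of all genes lower) and limma voom (8.71%) each called 0 members lower. No member was lower at an unadjusted p under 0.05 in edgeR, a threshold for which the share over all genes was not counted. *Sox11* rose by far the most, 1.85-fold, whereas *Dcx* and *Tubb3* rose 1.22-fold and 1.23-fold.

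SoxC proteins carry an HMG box that binds DNA, and SOX4 and SOX11 act in cells that leave the cell cycle and become neurons, where they promote expression of neuronal genes such as *Tubb3* and *Dcx*. In the retina they are needed for ganglion cells, and their transcripts are found in late progenitors as well as in young neurons. Doublecortin and beta-III tubulin build and stabilise microtubules in young neurons, stathmin-2 destabilises microtubules in growth cones, and GAP43 is a growth cone membrane protein. The neuronal ELAV-like proteins bind AU-rich stretches of mRNA and act on its splicing, stability and translation, and in the retina they mark ganglion, amacrine and horizontal cells.

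The promoters of the SoxC genes are shown first, since these 3 related genes differed in how far they moved, followed by those of *Tubb3* and *Dcx*, the other genes called higher. Each runs 5′ to 3′ in the direction of the gene, from 250 bases before to 50 bases after the RefSeq start site (GRCm38.p6). Capitals mark matches, on either strand, to the TATA box TATAAA, to the Sox protein letters ACAAAG and, as a further form of these, ACAATG, or to the E-box CAGCTG that proneural bHLH proteins bind. None of the matches overlap.
*Sox11*, minus strand, chr12:27342669-27342968: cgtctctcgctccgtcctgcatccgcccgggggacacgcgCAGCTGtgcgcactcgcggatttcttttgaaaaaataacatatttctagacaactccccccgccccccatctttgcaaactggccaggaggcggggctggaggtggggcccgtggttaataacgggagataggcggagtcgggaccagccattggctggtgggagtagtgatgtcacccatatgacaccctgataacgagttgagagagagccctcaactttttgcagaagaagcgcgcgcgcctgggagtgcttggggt
*Sox4*, minus strand, chr13:28953650-28953949: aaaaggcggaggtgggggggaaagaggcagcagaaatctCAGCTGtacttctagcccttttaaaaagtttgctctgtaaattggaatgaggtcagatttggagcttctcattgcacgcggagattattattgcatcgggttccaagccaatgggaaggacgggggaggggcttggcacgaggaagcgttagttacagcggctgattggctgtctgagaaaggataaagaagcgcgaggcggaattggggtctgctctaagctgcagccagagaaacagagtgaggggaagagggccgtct
*Sox12*, minus strand, chr2:152397997-152398296: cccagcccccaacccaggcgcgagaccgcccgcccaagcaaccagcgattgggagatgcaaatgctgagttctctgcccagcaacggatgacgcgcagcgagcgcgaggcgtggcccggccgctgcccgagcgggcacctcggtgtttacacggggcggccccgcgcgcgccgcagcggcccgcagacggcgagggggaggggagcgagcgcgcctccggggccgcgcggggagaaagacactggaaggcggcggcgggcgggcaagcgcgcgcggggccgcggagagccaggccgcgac
*Tubb3*, plus strand, chr8:123411303-123411602: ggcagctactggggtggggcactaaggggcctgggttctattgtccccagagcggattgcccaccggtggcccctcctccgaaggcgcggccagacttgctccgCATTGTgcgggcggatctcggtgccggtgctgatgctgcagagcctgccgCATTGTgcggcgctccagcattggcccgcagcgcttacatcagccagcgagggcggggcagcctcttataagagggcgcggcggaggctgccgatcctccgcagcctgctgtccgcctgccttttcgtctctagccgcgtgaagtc
*Dcx*, minus strand, chrX:143933170-143933469 (the first of 2 RefSeq start sites): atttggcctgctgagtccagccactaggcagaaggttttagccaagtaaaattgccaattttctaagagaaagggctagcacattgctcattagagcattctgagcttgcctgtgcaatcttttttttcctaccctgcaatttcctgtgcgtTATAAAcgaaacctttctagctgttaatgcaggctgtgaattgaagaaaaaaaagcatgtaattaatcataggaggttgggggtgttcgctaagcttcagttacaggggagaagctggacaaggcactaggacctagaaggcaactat
*Sox11* and *Sox4* each held a single CAGCTG, 210 and 211 bases upstream of the start site, and no other match. CAGCTG was present in 16.3% of all 32851 promoters of the table. *Sox12* held none of these letters, but its 47 CG pairs placed it at or above 98.8% of promoters. *Tubb3* held 2 matches to ACAATG, 146 and 96 bases upstream, letters present in 12.6% of all promoters, and *Dcx* held a TATAAA 98 bases upstream, present in 13.6%. ACAAAG, found in 18.7% of all promoters, lay in none of these 5 windows. The second *Dcx* window, which overlaps the first, held it 8 bases upstream of its own start site. The table had no entry for *Stmn2* or *Gap43*. The RefSeq start of *Sox11*, at 27342718, lies outside the *Sox11* gene of the deposited table, which ends at 27342574.

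Total counts ranged from 16227095 to 20281517 per sample, so counting error was small for the members, and 3 counts, taken as the limit of detection, correspond to at most 0.185 CPM (counts scaled to a common library total with TMM factors). The members are abundant, the lowest averaging 35.3 CPM over all samples. Among the 6947 genes at or above that level, 6.88% were called higher. *Mettl3* itself was at 21.1, 29.6, 21.3 and 24.3 CPM in the retinas of the 4 mutants and at 33.8, 32.5, 29.4 and 29.3 CPM in the 4 controls, a log2 fold change of -0.38 (SE 0.12, adjusted p = 0.0602 from edgeR). *Mettl3*-CKO replicate 2 lay within the control range. Reads on exons that remain after recombination, or from cells without recombination, still count, and their part in the *Mettl3* level was not tested. In the lens markers control replicate 4 stood apart, with 2173 CPM summed over 8 genes against 3.77 to 43 CPM elsewhere. In the rod (3690 CPM) and astrocyte (205 CPM) markers control replicate 1 was the highest sample. In whole tissue, fewer cells of a type and less RNA per cell cannot be told apart.

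*Sox11* rose in *Mettl3*-CKO retinas, *Sox4* was at the same mean level in both groups, and *Sox12* lay between them. *Sox11* (chromosome 12, 27334264 to 27342574, GRCm38, minus strand) was at 264, 262, 201 and 179 CPM in *Mettl3*-CKO replicates 1 to 4. In the controls it was at 96, 125, 138 and 132 CPM. All the mutant samples thus lay above all the controls, with replicates 1 and 2 the highest. The means were 226 ± 43.2 and 123 ± 18.6 CPM (SD, n = 4 each), a log2 fold change of 0.88 (SE 0.14, 95% interval 0.58 to 1.19, adjusted p = 0.00269 from edgeR). *Sox11* is the only member that was also called at an adjusted p under 0.01, as 2.44% of all genes were. It was called in all 8 fits that left out a sample, with log2 fold changes from 0.78 to 0.98, and under every other setting tried. From single-cell RNA-seq the paper names *Sox11* among the genes upregulated in a cluster of mutant Müller cells.

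*Sox4*, on chromosome 13 from 28948919 to 28953713 (minus strand), was at 515, 511, 492 and 504 CPM in the mutant samples and at 460, 526, 601 and 462 CPM in controls. The mutant samples were tightly grouped inside the wider control range. The log2 fold change was -0.02 with a 95% interval of -0.23 to 0.19 (adjusted p = 0.936, edgeR). The upper end of that interval lies below the lower end of the *Sox11* interval. *Sox12*, on chromosome 2 from 152393611 to 152398063 (minus strand), was at 242, 226, 212 and 214 CPM in the mutant samples. The control samples were at 184, 209, 212 and 162 CPM. The groups did not overlap, though the lowest mutant and the highest control value were equal when rounded, and 9.77% of all genes had higher mutant values without overlap. Of the members 4 did (*Sox11*, *Sox12*, *Dcx* and *Tubb3*), and none had lower values without overlap, as 7.58% of all genes did. The log2 fold change of 0.22 (SE 0.10, 95% interval 0.01 to 0.43) was not called (adjusted p = 0.173, edgeR) and was not called under any other setting tried. Without control replicates 1 and 4 it was 0.08.

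**Figure D1:**
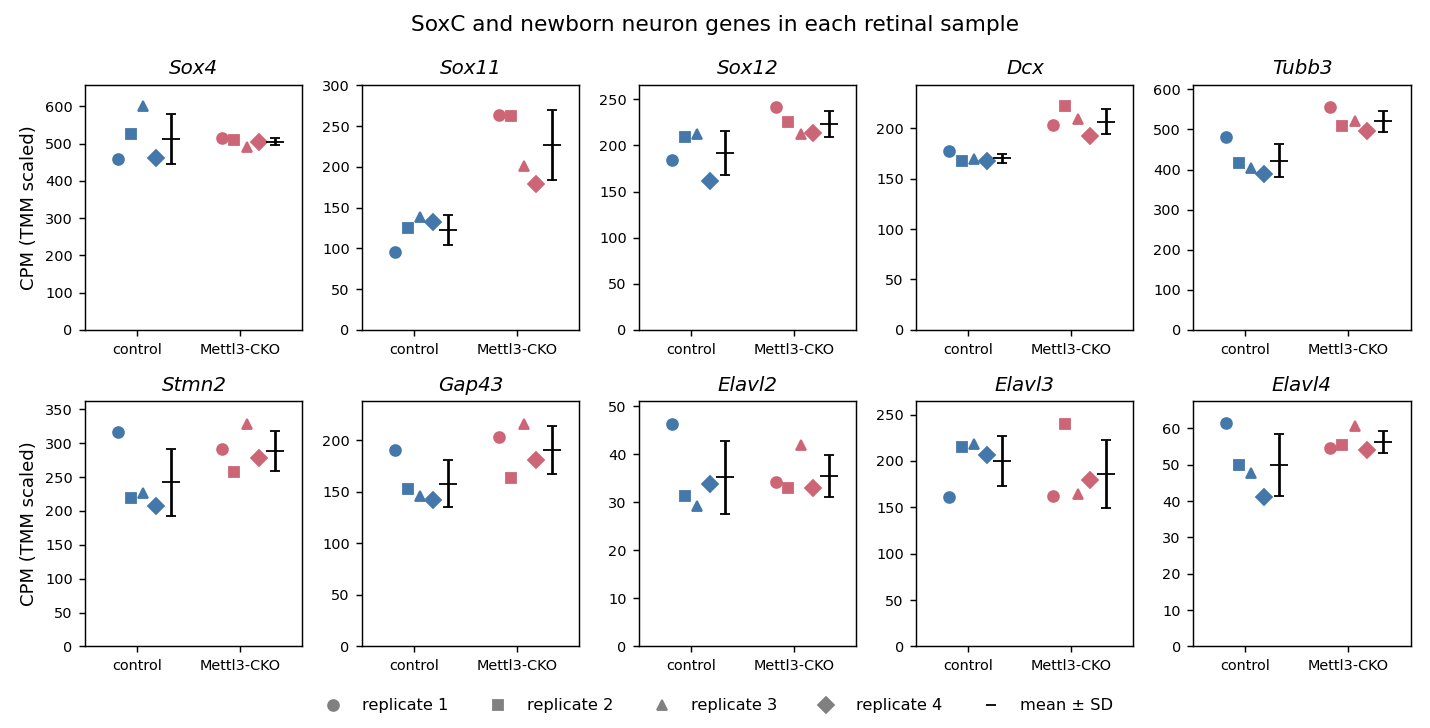
CPM (TMM scaled, axes from 0) of each member in the 4 control (blue) and 4 *Mettl3*-CKO (red) samples. Marker shapes give the replicate and black bars the mean ± SD. *Sox11* separates the groups most widely, and control replicate 1 (circle) is the highest control for *Dcx*, *Tubb3*, *Stmn2*, *Gap43*, *Elavl2* and *Elavl4* and the lowest for *Sox4*, *Sox11* and *Elavl3*.

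The cytoskeleton and growth genes *Dcx*, *Tubb3*, *Stmn2* and *Gap43* all had positive log2 fold changes within a narrow band, 0.25 to 0.30, and 2 of the 4 were called. *Dcx*, which encodes doublecortin (chromosome X, 143855842 to 143933311, minus strand), was at 203, 222, 209 and 192 CPM in mutant samples and at 177, 167, 169 and 167 CPM in controls. Its controls varied little, and no mutant sample reached down to them. The means were 207 ± 12.6 and 170 ± 4.89 CPM (SD, n = 4 each), a log2 fold change of 0.28 (SE 0.07, adjusted p = 0.0306, edgeR). *Tubb3*, the beta-III tubulin gene on chromosome 8 from 123411424 to 123422015 (plus strand), was at 557, 508, 520 and 496 CPM against 482, 416, 404 and 388 CPM. The means were 520 ± 26.3 and 423 ± 41.5 CPM (SD, n = 4 each). Again the groups did not overlap, with a log2 fold change of 0.30 (SE 0.09, adjusted p = 0.0497, edgeR).

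Both calls were close to the threshold. In the fits without single samples *Dcx* stayed between 0.25 and 0.32 and *Tubb3* between 0.26 and 0.37. *Dcx* was called only without *Mettl3*-CKO replicate 4 (adjusted p = 0.034, edgeR) or without control replicate 1 (0.0084), and *Tubb3* only without control replicate 1 (0.00376). Leaving out any other sample gave adjusted p-values of 0.06 to 0.0841 for *Dcx* and 0.0653 to 0.133 for *Tubb3* (edgeR). With no filter on low counts, neither was called (adjusted p = 0.0715 and 0.0586, edgeR). With other tools and settings, 3 members were called higher by DESeq2 (8.54% of all genes), with upper-quartile scaling (6.25%) and with scaling to total counts only (6.90%). There were 2 with RLE scaling (6.24%) and with the replicate block (6.66%), and 1 with no filter (3.86%). Leaving out *Mettl3*-CKO replicate 1, 2, 3 or 4 left 1, 1, 1 and 2 members called, against 2.78%, 4.84%, 4.34% and 5.50% of all genes. Leaving out control replicate 2, 3 or 4 left 1 each, against 3.82%, 4.52% and 4.58%. *Dcx* is X-linked and the part of the sex of the pups in its levels was not tested.

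*Stmn2*, on chromosome 3 from 8509360 to 8561606 (plus strand), was at 292, 257, 328 and 278 CPM in mutant samples. The controls were at 316, 219, 227 and 208 CPM. Control replicate 1 lay among the mutant samples and was 1.45 times the mean of the other controls. The log2 fold change was 0.25 (SE 0.13, 95% interval -0.03 to 0.53, adjusted p = 0.253, edgeR). *Gap43*, on chromosome 16 from 42248442 to 42340651 (minus strand), was at 203, 163, 216 and 181 CPM against 191, 153, 146 and 142 CPM, with the same control sample the highest. Its log2 fold change was 0.27 (SE 0.11, 95% interval 0.02 to 0.52, adjusted p = 0.164, edgeR). Without control replicate 1 *Stmn2* differed by 0.41 (adjusted p = 0.00447, edgeR) and *Gap43* by 0.38 (adjusted p = 0.0107, edgeR). In that comparison 6 members were called higher (*Sox11*, *Dcx*, *Tubb3*, *Stmn2*, *Gap43* and *Elavl4*), against 10.3% of all 18235 genes tested there. limma voom, which weights samples by their quality, called 5 members higher in all 8 samples (the same set without *Elavl4*), against 11.9% of all genes.

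Markers of retinal ganglion cells, in which *Stmn2* and *Gap43* are strongly expressed, had their highest sum in control replicate 1. The summed level over 9 genes was 766 CPM there, 532 to 581 CPM in the other controls and 587 to 620 CPM in the *Mettl3*-CKO samples. *Nefl*, the neurofilament light chain gene and the most abundant of these markers, was at 241 CPM in that sample and at 144 to 170 CPM in all others. Of the 9 markers 5 were highest in that sample (*Nefl*, *Nefm*, *Nefh*, *Slc17a6* and *Sncg*), whereas the other 4 (*Pou4f1*, *Pou4f2*, *Pou4f3* and *Rbpms*) were highest in a *Mettl3*-CKO sample. The part of ganglion cell content in the levels of *Stmn2* and *Gap43* was not tested.

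**Figure D2:**
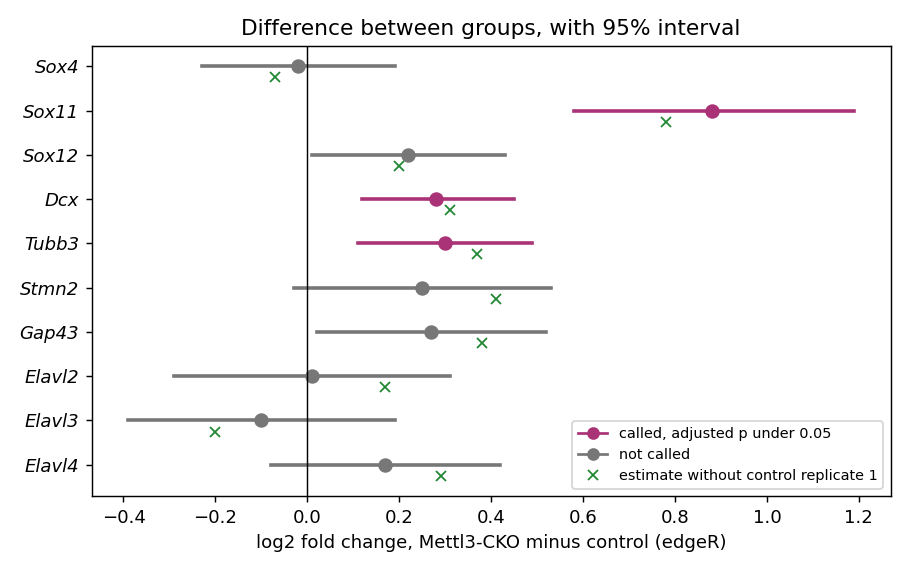
Log2 fold change (*Mettl3*-CKO minus control, edgeR) of each member with its 95% interval, purple where called at an adjusted p under 0.05 and grey where not. Green crosses give the estimate without control replicate 1, which is 0.41 for *Stmn2*, 0.38 for *Gap43* and 0.29 for *Elavl4*, each above the estimate from all samples.

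None of the neuronal ELAV-like genes was called by edgeR, DESeq2 or limma voom, and none had an unadjusted p under 0.05 in edgeR. *Elavl3*, which encodes HuC (chromosome 9, 22015005 to 22052023, minus strand), was at 162, 240, 164 and 179 CPM in mutant samples and at 161, 215, 218 and 206 CPM in controls. *Mettl3*-CKO replicate 2 was the highest and control replicate 1 the lowest sample, so the groups overlapped throughout. The log2 fold change was -0.10 (95% interval -0.39 to 0.19). *Elavl4*, which encodes HuD (chromosome 4, 110203722 to 110351909, minus strand), was at 54.7, 55.5, 60.7 and 54.2 CPM against 61.4, 49.8, 47.6 and 41 CPM. Control replicate 1 was the highest of all samples, and every other control lay below every mutant sample. Its log2 fold change was 0.17 (95% interval -0.08 to 0.42, adjusted p = 0.397, edgeR), and 0.29 without that control (adjusted p = 0.0395, edgeR).

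*Elavl2*, which encodes HuB (chromosome 4, 91250763 to 91400785, minus strand), was the least abundant member at 34.3, 32.9, 41.9 and 32.9 CPM in mutant samples and 46.3, 31.4, 29.3 and 33.8 CPM in controls. Control replicate 1 and *Mettl3*-CKO replicate 3 were the highest of their groups. The log2 fold change was 0.01 (95% interval -0.29 to 0.31, adjusted p = 0.972, edgeR), and it was 0.17 without control replicate 1 (adjusted p = 0.263, edgeR). In control replicate 1 *Elavl3* thus went against its relatives: it was the lowest of the controls there, whereas *Elavl2* and *Elavl4* were the highest. The markers of amacrine cells, which express these genes, summed to 679, 953, 796 and 839 CPM in the mutant samples and to 749, 958, 1020 and 873 CPM in controls. The lowest and highest samples of this sum within each group were those of *Elavl3* (*Mettl3*-CKO replicates 1 and 2, control replicates 1 and 3). Among the single markers only *Tfap2b*, which makes up much of the sum (366 to 554 CPM), and *Tfap2c* held this order. The others did not, and *Gad1* was highest in control replicate 1 (136 CPM). The part of amacrine cell content in the *Elavl3* level was not tested.

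Ratios between members were then taken within each sample, since the ratio of 2 genes in 1 library does not depend on how libraries are scaled. Among the 12 ratios, the 3 between SoxC genes differed between the groups without overlap. The log2 ratio of *Sox11* to *Sox4* counts was -0.96, -0.96, -1.3 and -1.49 in *Mettl3*-CKO samples and -2.26, -2.08, -2.13 and -1.8 in controls, a difference of 0.89 (1.85-fold). *Sox11* against *Sox12* differed by 0.65, with the mutant samples between -0.25 and 0.22 and the controls between -0.94 and -0.29. *Sox12* against *Sox4* differed by 0.24, with the mutant samples between -1.24 and -1.09 and the controls between -1.51 and -1.32. Each of the 3 had p = 0.0286 in a two-sided exact permutation test, the smallest that 4 samples against 4 allow, and 0.114 after adjustment over the 12 ratios, so none passed the correction. When single samples were left out, the *Sox11* to *Sox4* difference ranged from 0.82 to 0.99 (exact permutation test, p = 0.0286 throughout). That of *Sox11* to *Sox12* ranged from 0.55 to 0.77 and that of *Sox12* to *Sox4* from 0.21 to 0.27. For each of these p reached 0.0571 in the exact permutation test.

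The 6 ratios among *Dcx*, *Tubb3*, *Stmn2* and *Gap43* differed between the groups by -0.02 to 0.04 on the log2 scale (exact permutation tests, p from 0.657 to 0.971). Each difference was smaller in size than the SD within either group. The steadiest was *Stmn2* to *Gap43*, with a mean log2 ratio of 0.60 ± 0.06 in mutant samples and 0.61 ± 0.09 in controls (SD, n = 4 each). When single samples were left out, these differences lay between -0.10 and 0.10. Among the ELAV-like genes, *Elavl4* against *Elavl3* differed by 0.30, *Elavl2* against *Elavl3* by 0.14 and *Elavl4* against *Elavl2* by 0.16 (exact permutation tests, p = 0.314, 0.657 and 0.2), with overlap in each.

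**Figure D3:**
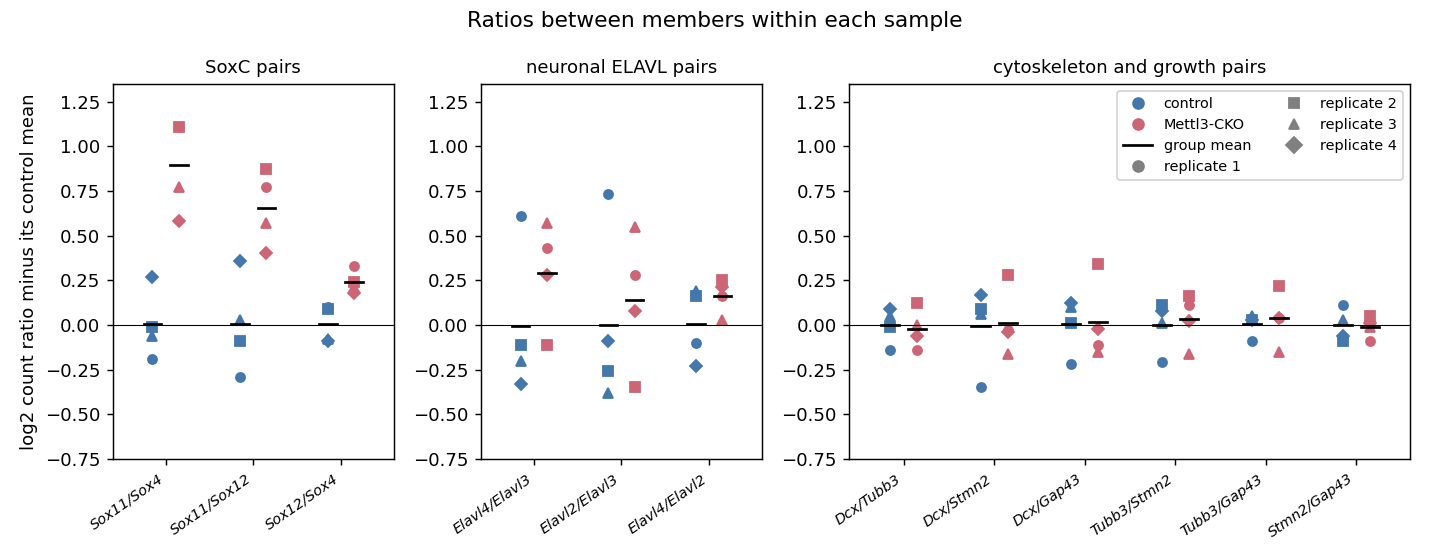
Log2 ratio of the counts of 2 members within each sample, with the mean of the controls subtracted, in control (blue) and *Mettl3*-CKO (red) samples. Shapes give the replicate and bars the group mean. The 3 SoxC ratios do not overlap between the groups, whose means differ by 0.24 to 0.89, but none passed the correction over 12 ratios. The ratios among *Dcx*, *Tubb3*, *Stmn2* and *Gap43* scatter around 0 in both groups.

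Levels were compared between genes per length, as FPKM (CPM by total count, per kilobase of the deposited gene length). That length equals the longest protein-coding transcript for the SoxC genes and *Tubb3*, and exceeds it for the other members. For *Stmn2* it is 5602 against 2073 bases and for *Elavl3* 6890 against 5014. The order of those members, and the overlaps with them, therefore depend on the length used. In controls *Tubb3* was highest at 225 ± 17.9 FPKM, followed by *Sox4* (106 ± 14.6) and *Gap43* (103 ± 12.8), whose ranges overlapped (SD, n = 4 each). Next came *Stmn2* (42.9 ± 7.89) and *Sox12* (42.8 ± 5.44), which also overlapped, and then *Elavl3* (28.9 ± 4.31). *Sox11* (14.7 ± 2.42) and *Dcx* (13.3 ± 0.133) overlapped in FPKM and lay above *Elavl4* (9.21 ± 1.4) and *Elavl2* (4.2 ± 0.828). *Sox11* was thus the least expressed SoxC gene, and it remained so in *Mettl3*-CKO retinas at 27.3 ± 5.21 FPKM against 50.3 ± 3.32 for *Sox12* and 106 ± 2.66 for *Sox4*. By the deposited lengths its mean there reached that of *Elavl3* (27 ± 5.25 FPKM).

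**Figure D4:**
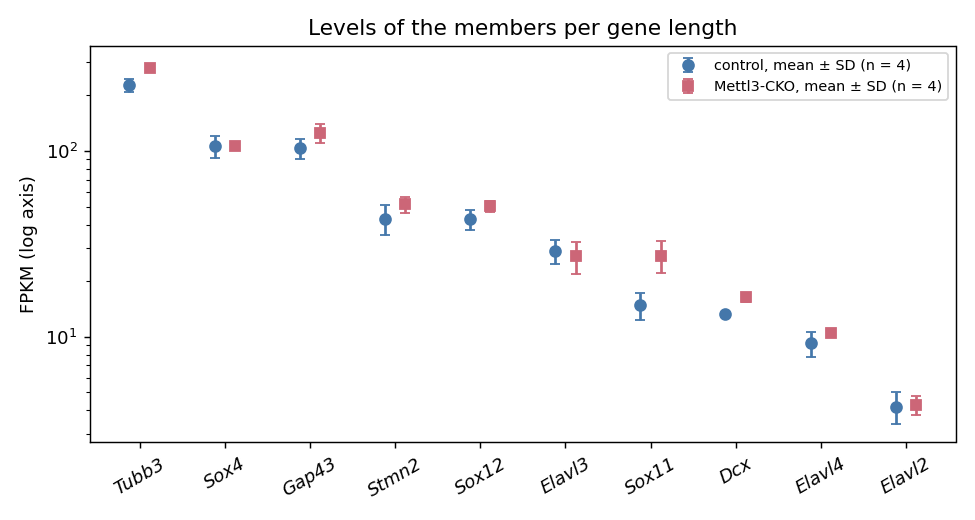
Mean ± SD (n = 4) of the members' levels per gene length (FPKM, log axis), ordered by the control level. *Sox11* rises from 14.7 FPKM in controls to 27.3 FPKM in *Mettl3*-CKO retinas, which by the deposited gene lengths sets it level with *Elavl3*.

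The rest of the Sox family was counted next. Of 16 other Sox genes, 11 had enough counts to be tested, and 1 was called higher and 1 lower, with a median log2 fold change of -0.02 against -0.01 over all genes, of which 6.49% were called higher and 4.05% lower. DESeq2 called 1 higher and 3 lower, against 8.54% and 6.20% of all genes. *Sox30*, a germline Sox gene expressed at a low level, rose from 1.25 ± 0.526 to 2.86 ± 0.17 CPM (SD, n = 4 each; log2 fold change 1.18, adjusted p = 0.0216, edgeR). *Sox6*, a SoxD gene, fell by 0.35 on the log2 scale, from 23.3 ± 0.509 to 18.2 ± 0.969 CPM (adjusted p = 0.0287, edgeR). Neither call was firm: without single samples *Sox30* was called in 4 of 8 fits (lost without *Mettl3*-CKO replicate 1, 3 or 4 or control replicate 2) and *Sox6* in 2 (kept only without *Mettl3*-CKO replicate 2 or control replicate 1). The progenitor gene *Sox2* was at 87.7 to 148 CPM in mutant samples and 67.9 to 95.1 CPM in controls, with overlap and no call (log2 fold change 0.43, adjusted p = 0.112, edgeR).

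Among relatives of the other members, 3 of 6 beta-tubulin genes and *Basp1* rose. Of 14 (stathmins, beta-tubulins, doublecortin-like kinases, *Elavl1*, *Basp1* and *Marcks*), 4 were called higher, with a median log2 fold change of 0.20 (6.49% of all genes were called higher). DESeq2 also called 4 (8.54% of all genes) and limma voom 8 (11.9%), while the count was 7 without control replicate 1 (10.3%). In edgeR 5 had an unadjusted p under 0.05, a threshold for which the share over all genes was not counted. None was lower by any of these. The beta-tubulin genes *Tubb6* and *Tubb4b* rose by 0.59 and 0.48 on the log2 scale (adjusted p = 0.00398 and 0.01, edgeR), and were called in all 8 fits without single samples. *Tubb5* was called in 4 of the 8, and *Tubb2a*, *Tubb2b* and *Tubb4a* were not called. *Basp1*, which like *Gap43* encodes a growth cone membrane protein, was at 612 to 742 CPM in mutant samples and 419 to 545 CPM in controls. Its log2 fold change of 0.46 was called (adjusted p = 0.0138, edgeR).

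In a wider list of 29 genes of newborn and early differentiating neurons, 1 gene was called higher and 2 lower, with a median log2 fold change of -0.06. Those 3 are a share close to that of all genes, 6.49% higher and 4.05% lower. *Map1b*, a microtubule-binding protein gene of growing axons, rose by 0.34 on the log2 scale (adjusted p = 0.0308, edgeR), a call kept only without control replicate 1 or 3 among the 8 fits that left out a sample. *Myt1* and *Insm1*, zinc finger genes switched on as precursors leave the cell cycle, fell by 0.40 and 0.36 (adjusted p = 0.0127 and 0.0356, edgeR). *Myt1* was called in all 8 fits without single samples and *Insm1* in 3 (lost without *Mettl3*-CKO replicate 2, 3 or 4 or control replicate 2 or 3). *Myt1* was at 164 to 206 CPM in mutant samples, below the 241 to 265 CPM of the controls.

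Genes of dividing cells and of neurogenic precursors, in which SoxC genes are also expressed, were measured beside the members. Of 12 proliferation genes, 6 were called higher, against 6.49% of all genes, with a median log2 fold change of 0.41, and their summed level was 2200 to 2917 CPM in *Mettl3*-CKO samples and 1637 to 2057 CPM in controls. The count was 8 with DESeq2 (8.54% of all genes), with no filter (3.86%) and without *Mettl3*-CKO replicate 4 (5.50%). It was 2 without *Mettl3*-CKO replicate 1 (2.78%), 3 without *Mettl3*-CKO replicate 2 (4.84%) and 3 without control replicates 1 and 4 (6.25%). *Mki67* had the largest change of the list and was called in all 8 fits without single samples, 0.98 on the log2 scale (adjusted p = 0.000701, edgeR), from 459 ± 46.5 to 905 ± 150 CPM (SD, n = 4 each). *Mettl3*-CKO replicates 1 and 2, the highest for *Sox11*, were also the highest in the proliferation sum, and control replicate 1 was the lowest in both. Of the single genes *Mki67*, *Ccna2*, *Mcm3* and *Aurkb* held this order. The others did not, and *Pcna*, *Rrm2* and *Birc5* were highest in *Mettl3*-CKO replicate 3. The part of dividing cells in the *Sox11* difference was not tested. Of 8 neurogenic precursor genes 1 was called, *Atoh7*, a bHLH gene of ganglion cell competence. It was at 24.9 to 44.5 CPM in mutant samples and 9.04 to 12.7 CPM in controls, a log2 fold change of 1.57 (adjusted p = 0.000434, edgeR).

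**Figure D5:**
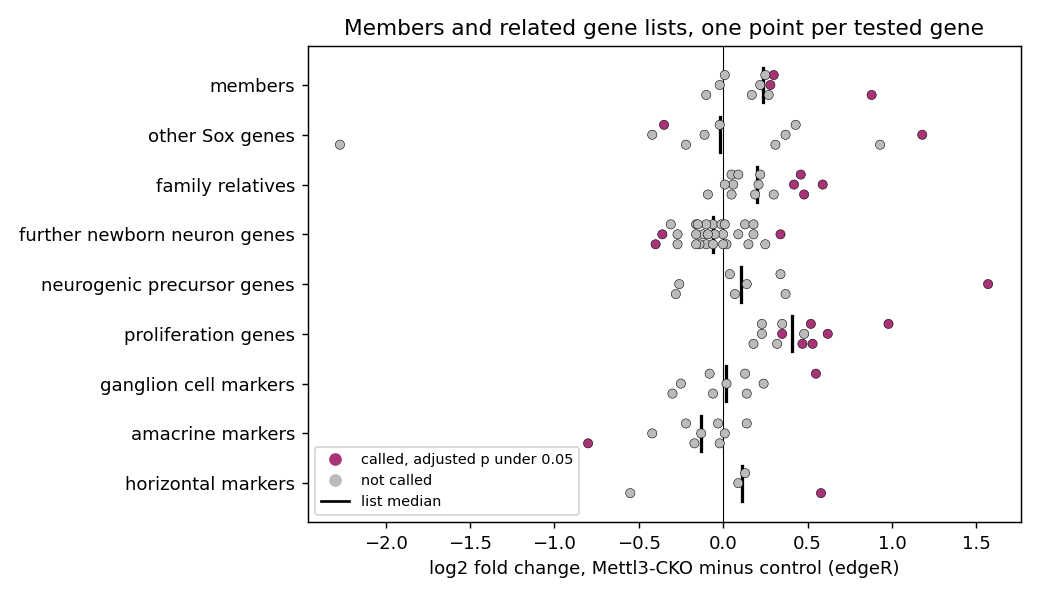
Log2 fold change (*Mettl3*-CKO minus control, edgeR) of each tested gene in the members and in related gene lists, purple where called at an adjusted p under 0.05. Black bars are list medians, which run from -0.13 for amacrine markers to 0.41 for proliferation genes, with the members at 0.24. Vertical offsets only separate points.

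Markers of the neurons that express the members held 1 call in each list, while 6.49% of all genes were called higher and 4.05% lower. Of 9 ganglion cell markers 1 was called higher, with a median log2 fold change of 0.02. That gene was *Pou4f1*, a POU homeobox factor of ganglion cells, at 84.9 to 101 CPM in mutant samples and 53.4 to 77.5 CPM in controls (log2 fold change 0.55, adjusted p = 0.0108, edgeR). Of 9 amacrine markers, 1 was called lower, with a median of -0.13. It was the glycine transporter gene *Slc6a9*, at 42.3 to 59 CPM against 77.5 to 91.3 CPM (log2 fold change -0.80, adjusted p = 0.00104, edgeR). *Tfap2b*, the most abundant amacrine marker, differed by -0.03. Of 4 horizontal cell markers, *Onecut2* was called higher (0.58, adjusted p = 0.0383, edgeR), a call kept only without control replicate 1 or 4 among the 8 fits that left out a sample.

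Markers of other cell types differed as well, and their part in the results on the members was not tested. The shares over all genes were 6.49% called higher and 4.05% called lower. Of 7 rod markers 5 were called lower, with a median log2 fold change of -0.81 and a summed level of 1271 to 2342 CPM against 2488 to 3690 CPM. Of 7 tested Müller glia markers, *Glul* was called higher (0.43) and *Rlbp1* lower (-1.28). Calls were lower for 2 of 3 astrocyte markers and 5 of 6 vascular markers, and higher for 1 of 4 tested bipolar markers. Without *Mettl3*-CKO replicate 1, 2, 3 or 4 the vascular count was 2, 2, 2 and 3 and the astrocyte count 1, 0, 1 and 1. The rod count was 2 and 3 without the first and second of these. Calls were lost over all genes too: 185, 424, 334 and 573 genes were lower in these fits, against 729 with all samples. The bipolar call was lost without *Mettl3*-CKO replicate 1 or 3 or control replicate 2. Of 8 lens markers 4 were tested and 2 called lower, and none without control replicate 4 or without any single *Mettl3*-CKO replicate. Without control replicates 1 and 4, 4 members were called higher (*Sox11*, *Dcx*, *Tubb3* and *Stmn2*), against 6.25% of the 18807 genes tested there.

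The transcripts of the members differ in build. *Sox4*, *Sox11* and *Sox12* are single-exon genes, as are 6.82% of 21901 protein-coding genes of GENCODE vM21 (longest protein-coding transcript of each), whereas the other members have 3 to 8 exons. GGACT, a common form of the letters at which the METTL3 complex methylates adenosine, occurred 9, 11 and 12 times in the transcripts of *Sox4*, *Sox11* and *Sox12*. Per kilobase this is 1.88, 1.32 and 2.69, against a median of 1.01 over all these genes. *Tubb3* held 1.61 per kilobase, *Elavl4* 1.21, *Dcx* 0.882, *Elavl2* 0.716, *Elavl3* 0.598 and *Stmn2* 0.482, and *Gap43* held none in its 1420 bases. These are counts of letters, and methylation at them was not measured here. The paper mapped m6A in mouse retinas of several ages by MeRIP-seq, and those peaks were not used here. Annotated genes overlap *Sox4*, *Tubb3*, *Gap43*, *Elavl2* and *Elavl3* in the deposited coordinates, each with at most 7 counts over all samples, and whether strand was used in counting is not given in the sources used here.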

How the data were processed

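RNA-seq of mouse retina covered 4 control and 4 *Mettl3*-CKO samples. Reads were aligned by the authors with Hisat2 (GRCm38) after quality filtering, and featureCounts gave a count per gene. The deposited values are raw counts, and all 8 columns were matched to samples by their labels. Same-group samples differed by more than sampling noise (lowest chi-square 5.01 per gene). Nothing in the labels states that samples are separate animals, so p-values measure the spread between these samples.

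Counts were analysed in R 4.3.3 with edgeR 4.0.16 (filterByExpr, TMM, glmQLFit and glmQLFTest, Benjamini-Hochberg over 17998 genes, threshold 0.05; biological coefficient of variation 15%). The SE is the absolute log2 fold change divided by the square root of F. FPKM used the deposited gene lengths and total counts. Ratios used a prior count of 0.5 and exact permutation tests over samples. DESeq2 1.42.0, limma 3.58.1, other scalings, no filter, a replicate block and left-out samples were alternatives, and the test was checked on simulated counts. The members and gene lists were chosen with earlier results of these data known. Besides the members and *Mettl3*, genes are named by size among called genes of each list, or as the most abundant marker; *Sox2* was named after its values were seen. Promoters are from RefSeq (GRCm38.p6) and transcripts from GENCODE vM21.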

Additional observations from a re-analysis of the deposited data

How the results depend on the processing

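*Sox11* was called under each alternative tried. The number of members called higher was 3, moved to 5 with limma voom and to 1 with no filter on low counts or at an adjusted p under 0.01, and ranged from 1 to 6 when single samples were left out. It was 1 without *Mettl3*-CKO replicate 1, 2 or 3 or control replicate 2, 3 or 4, and 6 without control replicate 1. Over all genes, 1168 were higher and 729 lower. These counts were 2142 and 1568 with limma voom, 439 and 147 at the stricter threshold, and 509 to 1882 and 185 to 1289 without single samples (lowest without *Mettl3*-CKO replicate 1, highest without control replicate 1). For limma voom the cause was not tested.

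The sign turned for differences near 0. Leaving out single samples took *Sox4* from -0.07 to 0.07 and *Elavl2* from -0.07 to 0.17. The same took log2 ratio differences from -0.07 to 0.02 for *Dcx* to *Tubb3*, from -0.10 to 0.07 for *Dcx* to *Stmn2* and for *Dcx* to *Gap43*, from -0.03 to 0.10 for *Tubb3* to *Stmn2* and to *Gap43*, and from -0.03 to 0.03 for *Stmn2* to *Gap43*. Without control replicates 1 and 4 they were -0.01 (*Elavl4* to *Elavl2*), -0.07 (*Dcx* to *Stmn2*), -0.04 (*Dcx* to *Gap43*), -0.02 (*Tubb3* to *Stmn2*), 0 (*Tubb3* to *Gap43*) and 0.02 (*Stmn2* to *Gap43*).

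Both groups share replicate numbers. Deviations of same-numbered samples correlated between -0.114 and 0.249. The same-numbered control was the best match for *Mettl3*-CKO replicates 2 and 4, and another control was for replicates 1 and 3. With so few samples these correlations cannot decide whether the numbers pair the samples. With the replicate block 1198 genes were higher and 660 lower, and *Dcx* (adjusted p = 0.0534, edgeR) was not called whereas *Sox11* and *Tubb3* were. No scaling moved the median log2 fold change of all genes by over 0.1. At this depth the spread between samples, not counting error, limits what could be detected for these abundant genes.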
